A study of Mus musculus with 8 samples.

Results

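Solute carriers are the membrane proteins that move amino acids, sugars, lactate, ions, vitamins and nucleosides into and out of cells and organelles. Their genes carry symbols made of Slc, a family number and a member letter, and every row of the gene counts table whose symbol begins with Slc and a digit was taken. That gave 176 of 11354 genes. Of these, 172 encode transporters or their heavy chain, and 4 carry the name without being transporters (a pseudogene, a scaffold protein, a gene on the opposite strand of a transporter, and a transporter-binding protein). They were sorted by substrate into 20 amino acid carriers, 15 sugar and monocarboxylate carriers, 46 ion carriers, 36 mitochondrial carriers of the Slc25 family, 20 nucleoside and nucleotide sugar carriers and 35 carriers of other organic solutes. All 176 were matched by Entrez identifier to RefSeq, whose mouse annotation lists 375 protein-coding genes with such symbols. The table lists only genes that reached about 1 CPM, the count scaled to the size of its library, in at least 4 libraries, so carriers of low level were not analysed here.

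The study asked how CD4 T cells that lack Nlrp6, a cytosolic sensor of the NOD-like receptor family, differ from wild-type ones. Mouse CD4+ T cells were placed into RAG-/- hosts, which lack T and B cells but keep myeloid cells, and 8 RNA-seq libraries were made from the cells recovered. In 4 libraries the transferred cells were labelled wild type (WT) and in 4 Nlrp6 knock out (KO), on a background given as Black6. Either label has hosts 1, 2, 4 and 5. KO 4 and KO 5 carry another number than the other 6 libraries in a field of the library names, whose meaning the labels do not give and which is called the library number below. The labels give neither the age nor the sex of the mice, nor which part of Nlrp6 was deleted, and they name the spleen in some fields and the colonic lamina propria in others. Totals lay between 35198192 and 40310721 counts per library. The labels leave unsaid whether WT and KO cells with the same host number came out of 1 mouse. The tests therefore rest on the spread among 4 libraries per label, which may be partly technical.

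Nlrp6 went against the labels. It had 5, 3, 3 and 8 counts in the libraries labelled WT and 487, 329, 477 and 648 in those labelled KO, or 0.121 ± 0.0625 against 12.8 ± 3.34 CPM (mean ± SD, n = 4 each; log2 fold change 6.70 ± 0.32, mean ± SE, edgeR quasi-likelihood test with Benjamini-Hochberg adjusted p = 4.07e-06). Nlrp6 reached the table's minimum only under the KO label, so its test had to show a difference. It is the counts that go against the labels. Each library is therefore named by its label, and "higher" and "lower" always mean the libraries labelled KO compared with those labelled WT.

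The cells were checked against marker genes. T cell markers were high throughout: the 12 listed genes summed to between 8449 and 9637 CPM under the WT label and to between 8020 and 8815 under the KO label, and Cd3e, a subunit of the T cell receptor complex, was at 527 ± 39.7 and 505 ± 26.6 CPM. Cd247 (-0.40 ± 0.11, adjusted p = 0.0444) and Zap70 (-0.27 ± 0.07, adjusted p = 0.0304) were the members of that list that passed the test, both lower. That is 16.7%, beside 10.0% of all genes, and the median log2 fold change of the list was -0.11. In edgeR 5 were lower and 1 higher at an unadjusted p below 0.05. DESeq2 called 3 lower and 1 higher, limma-voom 5 lower and 0 higher. Without KO 2 and KO 4, edgeR called 5 lower and 0 higher. Of 20 myeloid markers, 17 were higher (85.0%, beside 6.2% of all genes) and 0 lower, with a median log2 fold change of 3.35. Spi1 and Ms4a7 reached the table's minimum of about 1 CPM only under the KO label and so had to be higher. Adgre1, Mrc1 and Aif1 missed it in at least 1 WT library and needed KO libraries to be listed. The 20 markers summed to 436 to 574 CPM under the WT label and 729 to 1492 under the KO label. Ccr2, which T cells also express and which did not pass, made up 372 to 488 CPM of the WT sums, and the other 19 summed to 63.5 to 109.9 CPM under the WT label and 317.5 to 977 under the KO label. The myeloid level, the mean log2 CPM of all 20 markers with Ccr2, was 2.13, 1.73, 1.30 and 1.80 in WT 1, 2, 4 and 5. It was 3.70, 4.42, 5.15 and 4.81 in KO 1, 2, 4 and 5, so the labels did not overlap and the KO libraries ran in the order KO 1, KO 2, KO 5, KO 4. Of 7 neutrophil genes listed, the 3 in the table were higher, from 6.83 to 12.1 CPM in sum under the WT label to 22.6 to 50.8 under the KO label. Of the 2 dendritic, 4 epithelial, 7 stromal and 2 red cell genes in the table, edgeR called 0 (3 higher and 1 lower at an unadjusted p below 0.05; DESeq2 and limma-voom called 1 higher each), and the B and plasma cell genes were not analysed here. In bulk RNA, fewer cells of a type and less RNA per cell cannot be told apart.

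T cells are small and quiescent at rest, and when stimulated they raise the uptake of amino acids and glucose to build new cells. Leucine and other large neutral amino acids enter through a light chain, Slc7a5, bound to the heavy chain Slc3a2 (CD98), glutamine enters through Slc1a5 and the Slc38 carriers, and arginine through Slc7a1. Glucose enters through Slc2a1 and Slc2a3, and lactate leaves through monocarboxylate carriers. Macrophages and other phagocytes hold further carriers, among them Slc11a1 (NRAMP1), which moves iron and manganese out of the phagosome.

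Across the 176 genes, 25 passed the test at an adjusted p below 0.05, 20 of them higher and 5 lower, and 151 did not pass. That is 14.2% of the carriers, beside 10.0% of all 11354 genes tested (6.2% higher and 3.84% lower) and 9.97% of the 11178 other genes. The median log2 fold change was 0.04 for the carriers and -0.003 for all genes, and 123 of the 176 lay within 0.2 of 0. The CPM of the 2 labels did not overlap for 37 carriers (21.0%), beside 16.0% of all genes. Of the 20 that rose, 7 did so by 2-fold or more and 13 by less, and 0 of the 5 that fell did so by 2-fold. For Slc7a7, Slc7a8, Slc7a11 and Slc8a1 no WT library reached the table's minimum, so they entered only through the KO label and had to differ. Without these 4, 16 rose and 5 fell of 172 (12.2%), with a median of 0.04. Slc11a1, kept among the 16, missed the minimum in WT 4 and so also needed a KO library to be listed.

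**Figure D1:**
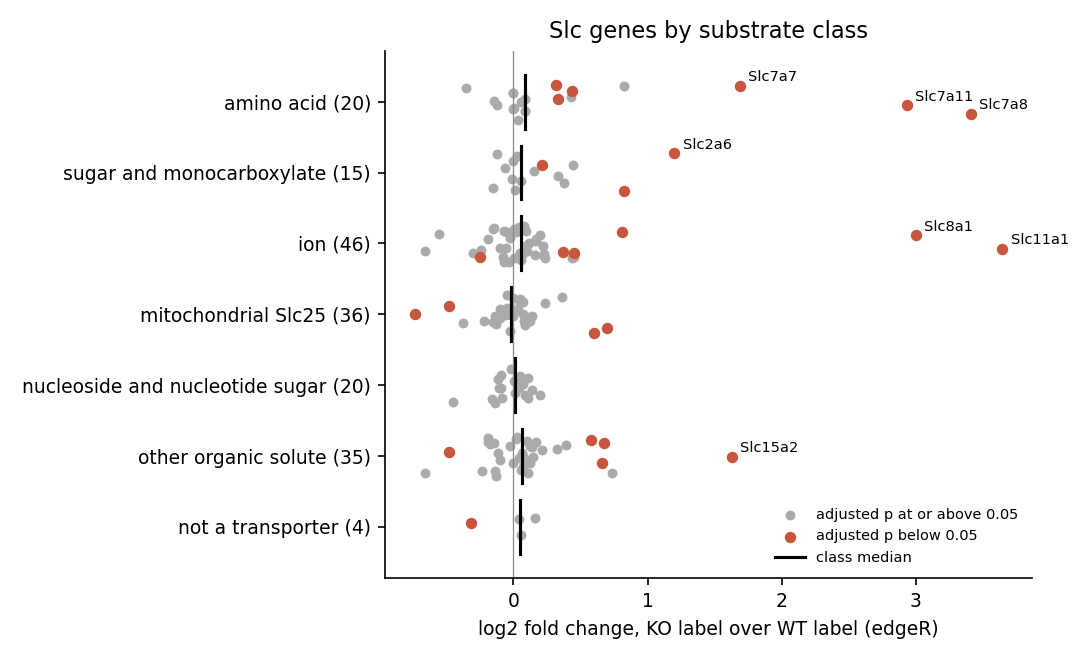
Log2 fold change (x axis, KO label over WT label) of each of the 176 Slc genes, in rows by substrate class with the number of genes in parentheses; orange points passed the edgeR test at an adjusted p below 0.05 and the vertical bars are class medians. Most points lie near 0, the points furthest to the right are Slc11a1 (3.65), Slc7a8 (3.41) and Slc8a1 (3.0), and no nucleoside or nucleotide sugar carrier passed.

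The share that passed was 6 of 20 amino acid carriers (30.0%), 3 of 15 sugar and monocarboxylate carriers (20%), 5 of 35 carriers of other organic solutes (14.3%), 6 of 46 ion carriers (13%), 4 of 36 mitochondrial carriers (11.1%) and 0 of 20 nucleoside and nucleotide sugar carriers. Among all genes the share was 10.0%. Among members that reached the table's minimum under both labels, it was 17.6% of 17 amino acid carriers and 11.1% of 45 ion carriers. The other classes kept their shares. These shares were not tested against each other. As a level per length, computed as counts per kilobase of gene and scaled to the same total in each library (TPM), the carriers together made up 8129 ± 136 TPM under the WT label and 8521 ± 131 under the KO label. The mitochondrial class was the largest (2450 ± 34.8 and 2409 ± 90.8 TPM), followed by ion (1569 ± 27.6 and 1712 ± 61.8) and amino acid carriers (1415 ± 56.8 and 1541 ± 89.6).

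Amino acid carriers rose in 6 cases and fell in 0 (2 lower at an unadjusted p below 0.05 in edgeR; 1 lower call with DESeq2 and 0 with limma-voom), and their median log2 fold change was 0.09. Without the 3 that reached the table's minimum only under the KO label, 3 of 17 rose and the median was 0.06. Those that rose were the arginine and lysine carrier Slc7a1, the glutamine carrier Slc38a2 and 4 of the 5 measured light chains that pair with the heavy chain Slc3a2: Slc7a5, Slc7a7, Slc7a8 and Slc7a11. Of these, Slc7a7, Slc7a8 and Slc7a11 are the members that entered the table only through the KO label. Without them 1 of 2 light chains rose, beside 6.2% of all genes.

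Slc7a5 (LAT1), at chr8:121881146-121907686 on mm10, was at 73.9, 73.7, 65.8 and 81.3 CPM in WT 1, 2, 4 and 5 and at 101, 103, 96.7 and 97.0 in KO 1, 2, 4 and 5. All 4 KO libraries lay above all 4 WT libraries, with means of 73.7 ± 6.35 and 99.5 ± 3.11 and a log2 difference of 0.43 ± 0.06 (edgeR, adjusted p = 0.00178). Slc7a1 (CAT1; chr5:148327410-148399904) was at 87.6, 85.8, 81.7 and 88.7 CPM under the WT label and at 112, 105, 108 and 104 under the KO label. It differed by 0.32 ± 0.04 (edgeR adjusted p = 0.00120), again with no overlap. The KO libraries of these genes, which are well expressed in both labels, stayed within a narrow range, and KO 4, the library with the highest myeloid level, was not the highest for either.

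Slc38a2 (SNAT2; chr15:96687392-96699728), the carrier of small neutral amino acids, was the most abundant of the 6. It was at 505, 554, 492 and 510.0 CPM under the WT label and at 656, 606, 764 and 563 under the KO label, a difference of 0.33 ± 0.09 (edgeR adjusted p = 0.0445). The labels did not overlap, but the KO libraries spread widely and the call is marginal: it held in 2 of the 8 fits that each left out 1 library, and it was lost without any WT library (adjusted p from 0.0542 to 0.114), without KO 1 (0.107) and without KO 2 (0.0645). It was lost with the library number as a term (0.197) and without KO 2 and KO 4 (0.119).

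The other 3 light chains that rose were rare under the WT label. Slc7a8 (LAT2; chr14:54722215-54781886), a carrier of neutral amino acids, was at 0.563, 0.408, 0.127 and 0.235 CPM under the WT label and at 1.5, 3.34, 5.63 and 3.93 under the KO label (log2 fold change 3.41 ± 0.49, edgeR adjusted p = 0.00190). Slc7a11 (xCT; chr3:50364936-50499087), which takes up cystine in exchange for glutamate, was at 0.979, 0.790, 0.506 and 0.548 and at 2.85, 4.30, 10.4 and 4.21 CPM (2.94 ± 0.43, adjusted p = 0.00212). Slc7a7 (y+LAT1; chr14:54369442-54420068), which exports cationic in exchange for neutral amino acids, was at 0.637, 0.433, 0.582 and 0.679 and at 1.58, 1.30, 2.52 and 2.17 CPM (1.69 ± 0.27, adjusted p = 0.00297). In each of the 3 the highest KO library was KO 4, which has the highest myeloid level, and for Slc7a8 all KO libraries ran in the order of that level. With the myeloid level as a covariate, Slc7a8 was at -0.51 with adjusted p = 0.999, Slc7a11 at -0.37 with adjusted p = 0.999 and Slc7a7 at 0.40 with adjusted p = 0.999. Slc7a7 and Slc7a8 lie on chromosome 14 with 302147 bases between them, and Slc7a7 shares 228 bases with Oxa1l, so some of its reads may belong to that gene.

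The heavy chain itself did not pass. Slc3a2 was at 432, 504, 416 and 395 CPM under the WT label and at 434, 487, 539.5 and 392 under the KO label (0.08 ± 0.11, edgeR adjusted p = 0.712), and the labels overlapped. Per length, the 5 light chains summed to 91.3 to 109 TPM under the WT label and to 121 to 128 under the KO label, while Slc3a2 lay at 379.9 to 472 and 369 to 497 TPM. The ratio of light to heavy chain transcripts was 0.240, 0.206, 0.230 and 0.286 in WT 1, 2, 4 and 5 and 0.307, 0.277, 0.244 and 0.329 in KO 1, 2, 4 and 5, which overlap. Slc7a5 and Slc7a6 made up 98.7% to 99.1% of the light chain level under the WT label and 93.1% to 97.4% under the KO label.

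Several other well-known amino acid carriers of T cells did not pass. Slc1a5 (ASCT2) was at 347 ± 11.4 and 356 ± 18.4 CPM (0.03 ± 0.05, adjusted p = 0.745), Slc7a6 at 71.8 ± 3.14 and 74.9 ± 2.84 (0.06 ± 0.05, adjusted p = 0.504) and the lysosomal arginine sensor Slc38a9 at 23.9 ± 1.59 and 23.8 ± 1.16 (-0.01 ± 0.06, adjusted p = 0.978). Slc38a1, a glutamine carrier, was at 201, 208, 209 and 214 CPM under the WT label and 219, 228, 218 and 218 under the KO label. These values did not overlap, yet the difference was 0.09 ± 0.04 (adjusted p = 0.187).

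**Figure D2:**
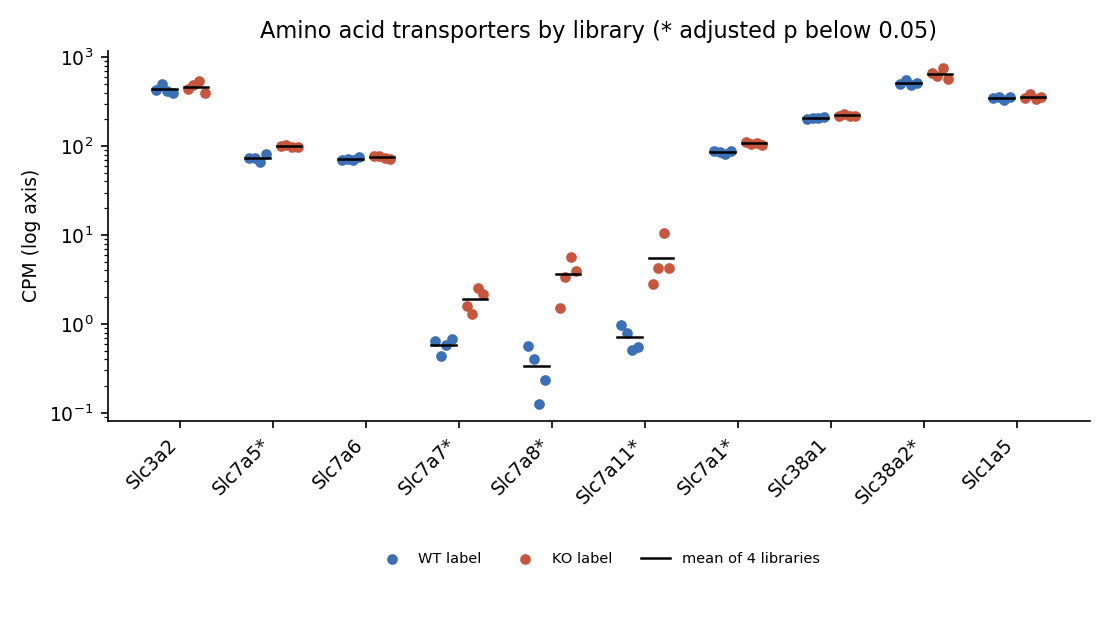
CPM (log axis) of amino acid carriers and their heavy chain in each of the 8 libraries, blue for the WT label and orange for the KO label, with black bars at the mean of 4 libraries; an asterisk marks genes that passed the edgeR test. Slc7a7, Slc7a8 and Slc7a11 lie below 1 CPM in every library labelled WT, whereas Slc7a1, Slc7a5 and Slc38a2 are well expressed in both labels and differ by less than 2-fold.

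Promoters of some amino acid carriers, Slc7a11 among them, are known for motifs that answer to amino acid shortage and oxidative stress. The 250 bases before the start were read for 3 members that rose, in the RefSeq table for GRCm38.p6 and in the direction of transcription, to show where such letters fall. All 3 genes lie on the minus strand. Capitals mark TGATGNAA (the C/EBP-ATF element) in Slc7a11 and TGACNNNGC (the core of the antioxidant response element) in Slc7a1 and Slc38a2, each searched on both strands.
Slc7a11, chr3:50443614-50443863: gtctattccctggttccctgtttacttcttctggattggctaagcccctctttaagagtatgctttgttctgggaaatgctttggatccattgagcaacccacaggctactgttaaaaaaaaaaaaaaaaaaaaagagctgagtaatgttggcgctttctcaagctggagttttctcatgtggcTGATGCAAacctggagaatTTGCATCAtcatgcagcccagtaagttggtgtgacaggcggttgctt
Slc7a1, chr5:148399905-148400154: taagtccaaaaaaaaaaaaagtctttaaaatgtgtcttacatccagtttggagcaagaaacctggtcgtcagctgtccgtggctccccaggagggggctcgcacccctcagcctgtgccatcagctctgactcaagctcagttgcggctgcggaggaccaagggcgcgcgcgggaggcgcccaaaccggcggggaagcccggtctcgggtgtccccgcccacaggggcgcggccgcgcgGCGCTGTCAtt
Slc38a2, chr15:96699729-96699978: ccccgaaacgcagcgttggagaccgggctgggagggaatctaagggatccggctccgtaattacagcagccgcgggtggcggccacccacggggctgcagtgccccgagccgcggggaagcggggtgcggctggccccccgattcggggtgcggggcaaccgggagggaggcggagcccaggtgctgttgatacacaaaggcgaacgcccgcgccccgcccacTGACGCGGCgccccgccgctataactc

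The Slc7a11 window holds the C/EBP-ATF letters on both strands, at 66 to 59 and at 47 to 40 bases before the start. The start that RefSeq gives there lies inside the annotated span of Slc7a11. The antioxidant core lies 11 to 3 bases before the start in Slc7a1 and 27 to 19 before it in Slc38a2. A further window of Slc7a1 in the table holds none of the motifs. Over 11512 windows of 9075 genes of the table, 2.02% held the C/EBP-ATF element and 11.7% the antioxidant core. Over 181 windows of 135 carriers the shares were 2.76% and 17.1%, and over 27 windows of 20 called carriers they were 11.1% and 25.9%, which is 3 and 7 windows. The C/EBP-ATF windows of called carriers belong to Slc7a11 and Slc7a7 alone, which entered the table only through the KO label. Windows of 1 gene can overlap, as they do for Slc7a7 and Slc25a23, and the same antioxidant site of Slc25a23 is counted in both of its windows. The shares were not tested. CACGTG, the E-box, was in 8.37% of windows of the table, 12.7% of carriers and 11.1% of called carriers. GAGGAAGT, the core bound by the myeloid factor PU.1, was in 2.78%, 2.21% and 7.41%. The last share is 2 windows, of Slc31a1, which rose, and of Slc22a15, which fell. A match says only that the letters are present.

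Genes that sense amino acids and feed mTORC1, the kinase that couples nutrients to growth, were read as a list. Of the 36 measured of 40, 3 rose, 0 fell and 33 did not pass (8.33%, beside 10.0% of all genes; edgeR, 1 lower at an unadjusted p below 0.05 and 0 lower calls with DESeq2), with a median of 0.01. The members that rose were the leucine sensor Sesn2 (17.1 ± 0.726 to 21.4 ± 0.980 CPM; 0.32 ± 0.06, edgeR adjusted p = 0.00642), its relative Sesn1 (19.2 ± 2.34 to 26.9 ± 4.33 CPM; 0.49 ± 0.12, adjusted p = 0.0364) and Fnip2, a partner of folliculin (3.30 ± 0.130 to 4.85 ± 0.754 CPM; 0.56 ± 0.14, adjusted p = 0.0327). Sesn2 and Fnip2 had the KO libraries in the order of the myeloid level. Sesn2 kept its call in all 8 fits that left out 1 library. It was lost with the library number as a term (0.0583) and without KO 2 and KO 4 (0.0588). Sesn1 lost it without WT 1 (adjusted p = 0.0922), WT 2 (0.0777), WT 4 (0.0898), KO 4 (0.0576) or KO 5 (0.0850), and Fnip2 in all such fits but the 1 without KO 1 (0.0615 to 0.0865). Both were also lost with the library number as a term (0.217 and 0.204) and without KO 2 and KO 4 (0.0798 and 0.184). With the host number as a block, 1 of the 36 genes was called higher and 0 lower.

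Among sugar and monocarboxylate carriers 3 of 15 rose and 0 fell (1 lower at an unadjusted p below 0.05; 0 lower calls with DESeq2 or limma-voom), with a median of 0.06. The 3 were the hexose carrier Slc2a6, the lactate exporter Slc16a3 and the sugar phosphate carrier Slc37a1. Slc2a6 (GLUT6; chr2:27021363-27028000), which sits on lysosomes, was at 3.55, 3.80, 2.48 and 3.63 CPM under the WT label and 4.4, 8.40, 9.71 and 8.45 under the KO label (1.2 ± 0.24, edgeR adjusted p = 0.0116). KO 1, with the lowest myeloid level of its label, was closest to the WT libraries, and all KO libraries ran in the order of that level. With the level as a covariate the difference was -0.88 with adjusted p = 0.999. The call was lost with the library number as a term (0.0806) and without KO 2 and KO 4 (0.0884).

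Slc16a3 (MCT4; chr11:120948484-120959000), the exporter found in cells that ferment glucose to lactate, was at 14.2, 16.4, 14.3 and 18.5 CPM under the WT label and 18.9, 23.1, 41.2 and 29.3 under the KO label. KO 1 lay only just above the highest WT library and KO 4 far above all others (0.82 ± 0.21, edgeR adjusted p = 0.0402). The call was lost without WT 1 (0.111), WT 2 (0.0854), WT 4 (0.106), WT 5 (0.0504) or KO 5 (0.0835). It was lost with the library number as a term (0.221) and without KO 2 and KO 4 (0.0860). Its KO libraries ran in the order of the myeloid level, and with that level as a covariate the difference was -0.92 with adjusted p = 0.984. The gene shares 1292 bases with Csnk1d, so its count is uncertain. Slc37a1 (chr17:31295135-31350709) was at 62.3, 57.7, 57.0 and 58.7 and 73.8, 64.3, 69.7 and 65.1 CPM (0.21 ± 0.06, adjusted p = 0.0415), and this call was lost without WT 2 (0.118), WT 4 (0.125), WT 5 (0.0790), KO 1 (0.113) or KO 4 (0.0743). It was lost with the library number as a term (0.116) and without KO 2 and KO 4 (0.0905).

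The main glucose carriers of T cells did not pass. Slc2a1 (GLUT1) was at 77.6, 89.8, 89.9 and 92.1 CPM under the WT label and 96.6, 101, 164 and 114 under the KO label. All KO libraries lay above all WT libraries, but KO 4 stood far above the other KO libraries, and the difference of 0.44 ± 0.15 had an edgeR adjusted p of 0.110 (0.0281 with DESeq2). Its KO libraries also ran in the order of the myeloid level. Slc2a3 (GLUT3) was at 290.0, 269.5, 203 and 332 and 335, 280.2, 416 and 344 CPM, which overlap (0.33 ± 0.15, adjusted p = 0.235). Slc16a1 (MCT1), the lactate carrier of lymphocytes, was at 105 ± 7.2 and 109 ± 3.98 CPM (0.06 ± 0.05, adjusted p = 0.590). The sugar carrier Slc50a1, the most abundant of the class per length, was at 52.1 ± 3.04 and 46.9 ± 2.48 CPM (-0.15 ± 0.06, adjusted p = 0.151).

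Of 18 measured partners of glucose and lactate transport (19 listed, among them hexokinases, lactate dehydrogenases and the chaperones of the monocarboxylate carriers), 2 rose and 0 fell (edgeR, 2 lower at an unadjusted p below 0.05, 0 lower calls with DESeq2 and 1 with limma-voom), with a median of 0.02. That is 11.1%, near the 10.0% of all genes. The 2 that rose were the hexokinase Hk3, at 1.76, 1.05, 0.936 and 1.2 CPM under the WT label and 6.86, 11.5, 21.8 and 13.4 under the KO label (3.43 ± 0.36, edgeR adjusted p = 0.000455), and the chaperone Emb, at 495 ± 35.4 and 581 ± 34.6 (0.23 ± 0.06, adjusted p = 0.0456). Hk3 lay below the table's minimum in WT 4 and so needed a KO library to be listed. Hk3 ran in the order of the myeloid level in the KO libraries, and with that level as a covariate it was at 0.32 with adjusted p = 0.999. The Emb call was lost without WT 1 (0.127), WT 4 (0.105), WT 5 (0.0886), KO 1 (0.114), KO 2 (0.124) or KO 4 (0.0514), without KO 2 and KO 4 (0.186) and with total library size (0.0523).

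Ion carriers rose in 5 cases and fell in 1 of 46, with a median of 0.06 (4 higher and 1 lower of 45 without Slc8a1). The largest rise among all carriers was that of Slc11a1 (chr1:74375014-74386057), which was at 1.44, 1.27, 0.885 and 1.04 CPM under the WT label and 7.97, 12.9, 22.8 and 14.9 under the KO label. Every KO library lay far above the highest WT library, and the log2 difference was 3.65 ± 0.32 (edgeR, adjusted p = 0.000236). WT 4 lay below the table's minimum, so the gene needed a KO library to be listed. Slc8a1 (NCX1; chr17:81373105-81738387), which exchanges sodium for calcium, was at 0.637, 0.510, 0.354 and 0.548 and 2.25, 3.46, 6.72 and 4.08 CPM (3.0 ± 0.36, adjusted p = 0.000672). Both ran in the order of the myeloid level in the KO libraries. With that level as a covariate they were at 0.89 with adjusted p = 0.818 and 0.08 with adjusted p = 0.999.

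Both copper carriers were higher, beside 6.2% of all genes. Slc31a1 (CTR1; chr4:62360583-62391769), which takes up copper at the cell surface, was at 19.2, 18.0, 15.2 and 18.2 CPM under the WT label and 21.8, 23.2, 27.1 and 24.6 under the KO label (0.45 ± 0.09, edgeR adjusted p = 0.0104). Slc31a2 (CTR2; chr4:62280393-62298412), its relative on endosomes and lysosomes, was at 3.43, 3.26, 2.96 and 2.95 and 4.11, 5.22, 7.13 and 5.65 CPM (0.81 ± 0.17, adjusted p = 0.0144). The genes lie 62171 bases apart on chromosome 4, neither overlapped between labels, and both followed the order of the myeloid level in the KO libraries. With that level as a covariate they were at -0.24 and -0.48. Both calls were lost with the library number as a term (0.0814 and 0.0984) and without KO 2 and KO 4 (0.0612 and 0.0824).

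Slc20a1 (PiT-1; chr2:129198773-129211615), the sodium-coupled phosphate carrier, was the second most abundant of all 176 genes per length, at 462 TPM. It was at 665, 815, 756 and 764 CPM under the WT label and 1046, 1035, 897 and 899.7 under the KO label (0.37 ± 0.08, edgeR adjusted p = 0.0136). Its KO libraries ran in the reverse of the myeloid order, with KO 1 highest and KO 4 lowest, and with the myeloid level as a covariate the difference was 0.87 with adjusted p = 0.315. Slc26a2, a sulfate carrier, was the ion carrier that fell, from 82.1, 78.4, 86.1 and 80.1 CPM under the WT label to 61.8, 71.9, 70.9 and 70.7 under the KO label (-0.25 ± 0.06, adjusted p = 0.0227). Its call was lost without WT 1 (0.0562) or WT 4 (0.0609).

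The remaining ion families gave no call, beside 10.0% of all genes. In the zinc importers of Slc39 it was 0 of 11, in the zinc exporters of Slc30 0 of 6, in the sodium-proton exchangers of Slc9 0 of 6 and in the chloride cotransporters of Slc12 0 of 6. Over these 29 genes, edgeR gave 2 higher and 1 lower at an unadjusted p below 0.05, and the calls were 1 lower with DESeq2 and 0 with limma-voom. Among the named members, Slc39a8 was at 10.8 ± 1.84 and 14.8 ± 4.36 CPM (0.45 ± 0.21, adjusted p = 0.223), the zinc exporter Slc30a1 at 20.2 ± 1.94 and 23.8 ± 4.62 (0.24 ± 0.13, adjusted p = 0.319) and the iron carrier Slc11a2 at 28.4 ± 2.53 and 30.2 ± 1.97 (0.09 ± 0.07, adjusted p = 0.544). Slc12a2 (NKCC1), which brings sodium, potassium and chloride into the cell, was at 26.3 ± 1.60 and 22.3 ± 1.64 CPM with no overlap (-0.24 ± 0.07, edgeR adjusted p = 0.0600, DESeq2 0.0297). Slc9a9 (0.23 ± 0.08) and the zinc carrier Slc39a7 (0.05 ± 0.04) did not pass, with adjusted p of 0.113 and 0.521.

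Of 17 measured genes of zinc, iron and copper handling (20 listed), 2 rose and 0 fell (edgeR, 1 lower at an unadjusted p below 0.05 and 1 lower call each with DESeq2 and limma-voom), with a median of 0.04. That is 11.8%, beside 10.0% of all genes. They were Fth1, the ferritin heavy chain (521 ± 45.6 to 711 ± 87.4 CPM; 0.45 ± 0.09, edgeR adjusted p = 0.0122), and Hmox1, which breaks down heme (13.7 ± 1.07 to 26.5 ± 10.0 CPM; 0.95 ± 0.23, adjusted p = 0.0287). Hmox1 was at 16.1, 23.0, 39.9 and 26.8 CPM in KO 1, 2, 4 and 5, which is the order of the myeloid level. With that level as a covariate Hmox1 was at -1.12 and Fth1 at -0.03. The Hmox1 call was lost without any WT library (0.0584 to 0.0788), without KO 5 (0.0616) and with limma-voom (0.0589). Both calls were lost with the library number as a term (0.0864 for Fth1 and 0.159 for Hmox1) and without KO 2 and KO 4 (0.0536 and 0.0707). With the host number as a block, 1 of the 17 genes was called higher and 0 lower. Of 19 measured ion transport partners (25 listed: sodium pumps and the kinases that act on Slc12 carriers), 2 rose and 1 fell (15.8%, beside 10.0% of all genes), with a median of 0.04. Among those that rose was the sodium pump beta subunit Atp1b3 (207 ± 5.98 to 236 ± 10.1 CPM; 0.19 ± 0.04, adjusted p = 0.0195). Stk39 (SPAK), a kinase that activates Slc12a2, fell from 112, 109.7, 113 and 100.2 CPM under the WT label to 84.5, 84.3, 87.0 and 85.6 under the KO label (-0.35 ± 0.05, adjusted p = 0.00109). The Stk39 labels lay far apart, and the KO libraries were close together. The Atp1b3 call was lost without WT 2 (0.0820), WT 4 (0.0679) or KO 1 (0.0571), with the library number as a term (0.0943) and with total library size (0.0596).

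**Figure D3:**
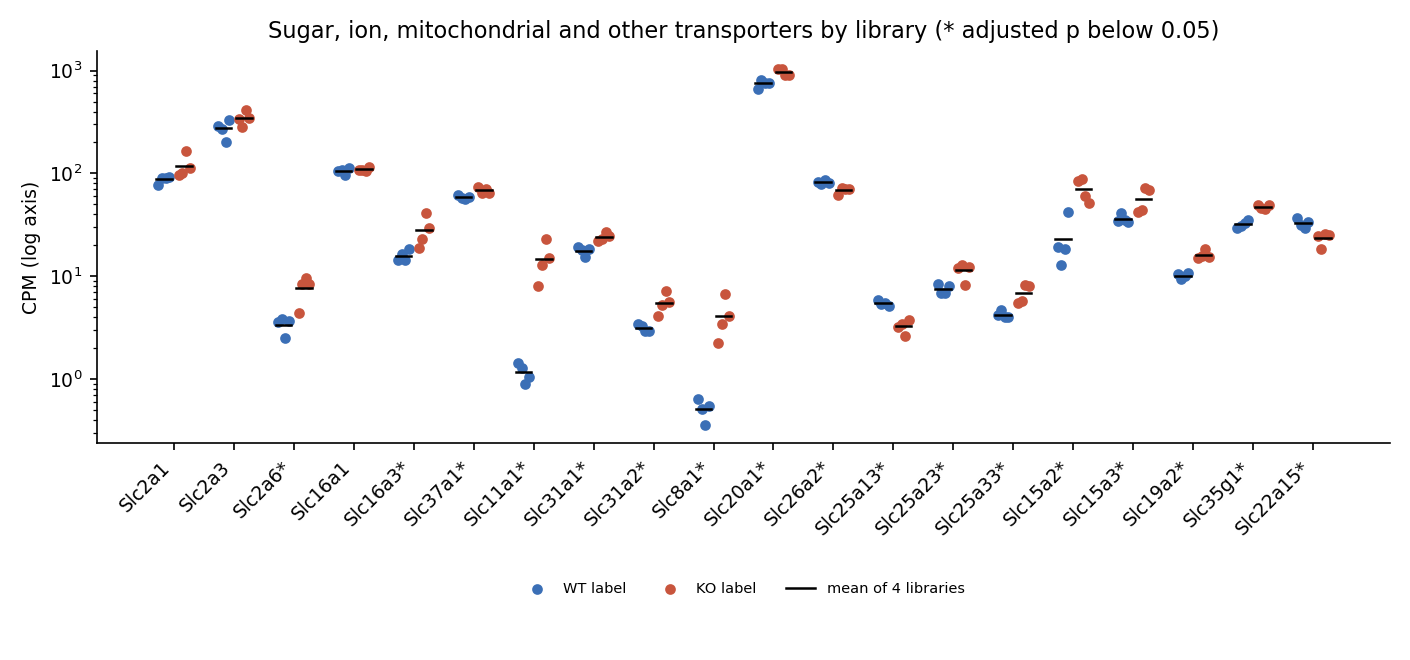
CPM (log axis) of sugar, ion, mitochondrial and other organic solute carriers in each of the 8 libraries, blue for the WT label and orange for the KO label, with black bars at the mean of 4 libraries; an asterisk marks genes that passed the edgeR test. Slc11a1 is at 0.885 to 1.44 CPM in the WT libraries and at 7.97 to 22.8 in the KO libraries, and Slc25a13 is lower in all 4 KO libraries.

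Mitochondrial carriers of the Slc25 family changed in both directions, 2 higher and 2 lower of 36 (11.1%, near the 10.0% of all genes), with a median of -0.02, and 28 lay within 0.2 of 0. Slc25a13 (citrin; chr6:6041218-6217304), the aspartate-glutamate exchanger, was at 5.80, 5.40, 5.46 and 5.12 CPM under the WT label and 3.21, 3.46, 2.61 and 3.78 under the KO label. The labels did not overlap, and its log2 fold change of -0.74 ± 0.13 (edgeR, adjusted p = 0.00677) was the lowest of all carriers.

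Slc25a33 (chr4:149744036-149774267), a carrier of pyrimidine nucleotides, was at 4.19, 4.66, 4.02 and 3.97 CPM under the WT label and 5.54, 5.76, 8.16 and 7.94 under the KO label (0.70 ± 0.15, edgeR adjusted p = 0.0180). It followed the order of the myeloid level in the KO libraries, and its call was lost without WT 1 (0.0519), WT 4 (0.0537) or KO 5 (0.0505). It was lost with the library number as a term (0.0930) and without KO 2 and KO 4 (0.0559). With the myeloid level as a covariate it was at -0.29. Slc25a23 (chr17:57043711-57059909), a calcium-regulated carrier of ATP-magnesium and phosphate, was at 8.42, 6.83, 6.81 and 8.01 and 12, 13, 8.30 and 12.3 CPM (0.60 ± 0.15, adjusted p = 0.0293). Its labels overlapped at KO 4, and the call held in 2 of 8 fits, without WT 5 or without KO 4. It was lost without WT 1 (0.0513), WT 2 (0.0923), WT 4 (0.0954), KO 1 (0.0780), KO 2 (0.0839) or KO 5 (0.0719).

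The abundant mitochondrial carriers did not pass. Slc25a5, the adenine nucleotide exchanger and the most abundant of all 176 genes per length (691 TPM), was at 307 ± 12.6 and 306 ± 25.4 CPM (-0 ± 0.06, adjusted p = 0.991). The phosphate carrier Slc25a3 was at 757 ± 88.7 and 805 ± 78.2 (0.09 ± 0.09, adjusted p = 0.651), Slc25a4 at 104 ± 1.89 under the WT label (-0.06 ± 0.07, adjusted p = 0.717) and the iron carrier Slc25a37 at 72.2 ± 4.97 and 64.8 ± 2.79 (-0.15 ± 0.06, adjusted p = 0.141). The citrate carrier Slc25a1 was at 15.3 ± 1.05 and 15.2 ± 0.980 CPM and the carnitine carrier Slc25a20 at 29.0 ± 1.19 and 29.0 ± 0.595, with adjusted p of 0.943 and 0.996. Slc25a22, a glutamate carrier that lies 500557 bases from Nlrp6 on chromosome 7, was at 39.1 ± 2.63 and 41.1 ± 2.39 CPM (0.07 ± 0.06, adjusted p = 0.563).

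All 20 partners listed with the mitochondrial carriers were measured, and 1 rose and 1 fell (10%, as among all genes), with a median of -0.002. Mpc1, a subunit of the mitochondrial pyruvate carrier, which bears no Slc symbol, rose from 14.2 ± 0.741 to 17.6 ± 0.773 CPM (0.31 ± 0.06, edgeR adjusted p = 0.0132). Mcur1, a regulator of mitochondrial calcium uptake, went from 62.5 ± 2.59 to 53.3 ± 3.56 CPM (-0.23 ± 0.06, adjusted p = 0.0318). Mpc1 lost its call without WT 1 (0.050), WT 2 (0.0508) or WT 4 (0.0516), with the library number as a term (0.0656) and without KO 2 and KO 4 (0.0685), and Mcur1 without WT 1 (0.0730), WT 2 (0.0688), WT 5 (0.0517), KO 1 (0.0864), KO 2 (0.0841) or KO 5 (0.0643). With the host number as a block, 1 of the 20 partners was called higher and 0 lower, so the Mcur1 call was lost there too.

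Vitamin, peptide and other organic solute carriers rose in 4 cases and fell in 1 of 35, with a median of 0.06. Slc19a2 (chr1:164249046-164265385), the thiamine carrier of the cell surface, rose. It was at 10.5, 9.30, 9.94 and 10.7 CPM under the WT label and 15.1, 15.6, 18.4 and 15.5 under the KO label (0.67 ± 0.09, edgeR adjusted p = 0.000959). The labels did not overlap, and the call held in all 8 fits that left out 1 library. The folate carrier Slc19a1 was at 17.6 ± 2.62 and 16.0 ± 2.27 CPM (-0.14 ± 0.13, adjusted p = 0.603).

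Slc35g1 (chr19:38395980-38405607), a carrier with no settled substrate, was at 29.3, 30.7, 32.6 and 34.9 CPM under the WT label and 49.7, 46.1, 45.1 and 49.6 under the KO label (0.58 ± 0.06, edgeR adjusted p = 0.000512). Of the carriers that rose by less than 2-fold it had the smallest p, and each label kept to a narrow range. Slc22a15 (chr3:101854443-101928220), of the organic cation and anion family, fell from 37.2, 31.3, 29.1 and 33.7 to 24.3, 18.4, 26.0 and 25.3 CPM (-0.48 ± 0.11, adjusted p = 0.0270). Its call was lost without WT 1 (0.0716), WT 5 (0.0594) or KO 1 (0.0548).

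Peptide carriers rose in 2 of 3 cases (66.7%, beside 6.2% of all genes). Slc15a2 (PEPT2; chr16:36750161-36785158), which takes up dipeptides and tripeptides with protons, was at 19.4, 12.9, 18.2 and 41.7 CPM under the WT label and 83.9, 88.2, 60.9 and 52.0 under the KO label (1.63 ± 0.33, edgeR adjusted p = 0.0130). The labels did not overlap, but WT 5 stood well above the other WT libraries and the call was lost without WT 1 (0.0514) and without KO 2 and KO 4 (0.0553). Its KO libraries did not follow the myeloid level: KO 4 and KO 5, with the highest levels, had the lowest values. Slc15a3 (chr19:10842544-10857915), a lysosomal carrier of histidine and peptides, was at 34.3, 40.9, 35.5 and 33.5 and 42.3, 44.0, 72.9 and 68.5 CPM (0.66 ± 0.18, adjusted p = 0.0458). It followed the myeloid order and was at -0.63 with that level as a covariate. The call was lost without any WT library (0.0633 to 0.118), without KO 4 (0.0758) or without KO 5 (0.106). It was lost with the library number as a term (0.137) and without KO 2 and KO 4 (0.0691). Slc15a4, its lysosomal relative, was at 23.7 ± 0.582 and 25.4 ± 1.43 CPM (0.10 ± 0.05, adjusted p = 0.304). The choline carrier Slc44a2, the most abundant of this class, was at 293 ± 25.2 and 323 ± 14.4 CPM (0.14 ± 0.06, adjusted p = 0.224).

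Nucleoside and nucleotide sugar carriers gave 0 calls of 20 (edgeR; 0 higher and 1 lower at an unadjusted p below 0.05, and 0 calls with DESeq2 or limma-voom), and 19 of 20 lay within 0.2 of 0. The nucleoside carriers Slc28a2 and Slc29a1 were at 277 ± 13.6 against 274 ± 7.45 CPM (-0.02 ± 0.04) and 54.3 ± 4.07 against 51.2 ± 1.93 CPM (-0.08 ± 0.06). Summed over the class, the level per length was 810 ± 9.29 TPM under the WT label and 798 ± 11 under the KO label.

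Of the 4 genes that carry the name without being transporters, the pseudogene Slc2a4rg-ps fell, from 53.3, 58.7, 57.9 and 57.1 to 48.7, 47.0, 46.1 and 40.3 CPM (-0.32 ± 0.06, edgeR adjusted p = 0.0124). It lies wholly within the span of Zbtb46, which was at 2.35 ± 0.251 and 2.51 ± 0.582 CPM and did not pass (0.10 ± 0.19, adjusted p = 0.833). The call was lost with the library number as a term (0.0981). The scaffold protein Slc9a3r1 was at 220.0 ± 13 and 246 ± 9.81 CPM (0.16 ± 0.05, edgeR adjusted p = 0.0903, DESeq2 0.0414).

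**Figure D4:**
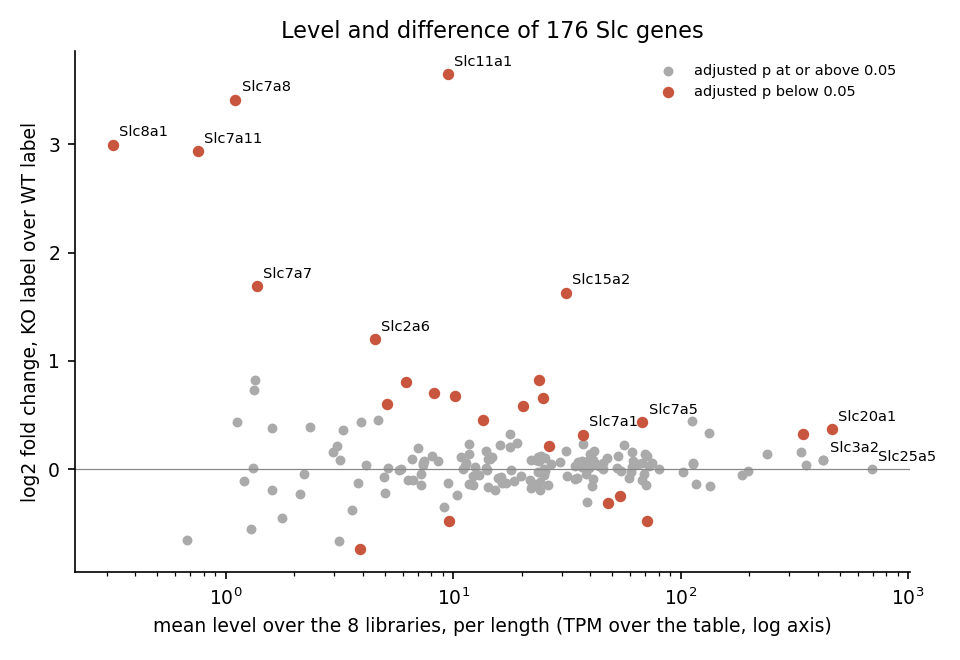
Mean level per length over the 8 libraries (x axis, TPM over the table, log axis) against log2 fold change (y axis, KO label over WT label) for the 176 Slc genes; orange points passed the edgeR test. Slc11a1, Slc8a1, Slc7a8 and Slc7a11, with the largest differences, lie at low levels, while Slc20a1, at 462 TPM, passed with a difference of 0.37.

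The calls fell at both ends of the range of levels. The largest differences were in carriers that were rare under the WT label, and Slc20a1 and Slc38a2 were the 2 called members among the 10 most abundant per length. Called members lay on 14 chromosomes, with at most 3 on any 1. Of the 25, 16 were called in all 8 fits that left out 1 library, among them Slc7a1, Slc7a5, Slc7a7, Slc7a8, Slc7a11, Slc11a1, Slc8a1, Slc31a1, Slc31a2, Slc20a1, Slc25a13, Slc35g1, Slc19a2, Slc2a6 and Slc2a4rg-ps. Of these, Slc7a7, Slc7a8, Slc7a11 and Slc8a1 entered the table only through the KO label and had to differ. That their calls held is therefore no support for them.

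The myeloid level was set against all called carriers. Of the 20 that rose, 9 had the KO libraries in the same order as that level, 4 of the 7 that rose 2-fold or more (Slc11a1, Slc8a1, Slc7a8 and Slc2a6) and 5 of the other 13 (Slc31a1, Slc31a2, Slc25a33, Slc15a3 and Slc16a3). Of the 5 that fell, 0 had the reverse order. With the myeloid level as a covariate, edgeR called 0 of the 176 carriers (5 higher and 9 lower at an unadjusted p below 0.05) and 7 of all genes, and 17 of the 25 kept their direction. The labels do not overlap in that level, so that fit has little to compare: the median SE of the 25 went from 0.13 to 0.36. The part of the myeloid RNA in these differences was not tested.

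**Figure D5:**
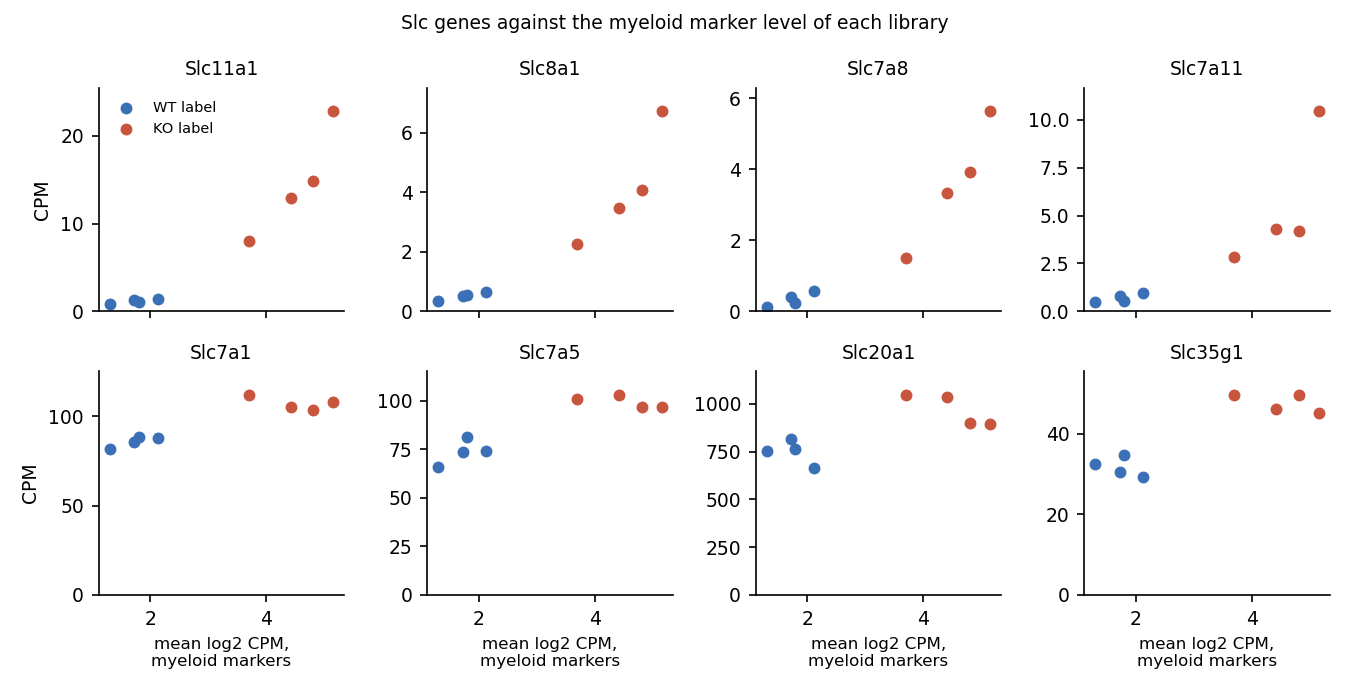
CPM of carriers (y axes, linear from 0) against the mean log2 CPM of 20 myeloid markers (x axes) in each of the 8 libraries, blue for the WT label and orange for the KO label. Slc11a1 increases with the marker level among the KO libraries, from 7.97 CPM in KO 1 to 22.8 in KO 4, whereas Slc20a1 is highest in KO 1 and lowest in KO 4.

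With the library number as a term, 13 carriers rose and 3 fell, and all 25 kept their direction. Without KO 2 and KO 4, 11 rose and 6 fell. The calls shared by both fits and by the fit to all libraries included Slc7a1 (0.34 with adjusted p = 0.00700 and 0.32 with adjusted p = 0.0107), Slc7a5 (0.47 with adjusted p = 0.00664 and 0.42 with adjusted p = 0.0149) and Slc11a1 (3.16 with adjusted p = 0.000360 and 3.28 with adjusted p = 0.000520).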

How the data were processed

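The data are 8 poly(A) RNA-seq libraries of transferred CD4 T cells, 4 per label. Per the labels' protocols, a stranded TruSeq kit was used, and the NextSeq 500 gave 81-base single reads. Per the submitters' processing notes, STAR and mm10 were used. Not given in the sources used here are the version of STAR, the counting tool, the annotation and whether strand was used, so overlapping and antisense genes cannot be told apart. The values the authors deposited are raw counts per gene, with symbols, Entrez identifiers and gene lengths. The table lists 11354 genes, and in each the fourth-highest CPM was 0.987 or more. Genes below that are not analysed here.

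Counts were scaled with TMM factors and tested with edgeR (glmQLFit, glmQLFTest) on all 11354 genes with the label as the only term. filterByExpr removed none. A gene was called at an adjusted p (Benjamini-Hochberg) below 0.05. The biological coefficient of variation common to all genes was 0.116. The SE of a log2 fold change is its size divided by the square root of F. TPM here are counts per kilobase scaled to the same total in each library. The duplicate check found no 2 libraries alike within counting noise. Over all genes, deviations from the label mean correlated at -0.0601, 0.182, -0.138 and 0.256 between the same-numbered libraries of hosts 1, 2, 4 and 5. The value of host 5 was the highest of any WT and KO pair. Stromal marker sums were 166.9, 113.2, 108.5 and 157.1 CPM in WT 1, 2, 4 and 5. In KO 1, 2, 4 and 5 they were 202.9, 123.1, 111.8 and 171.1, the same order of hosts. Epithelial sums did not share an order. Whether hosts were shared was not tested, and the numbers served as pairs only in the alternative with a block. The scripts were tested on simulated data.

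The members, substrate classes, marker and partner lists were chosen with earlier results of these data known. Named in each class were up to 6 called members in each direction by smallest p, the 2 most abundant per length, a fixed list of well-known carriers, and the called partners, up to 4 per list. Slc40a1, on that list, is not analysed here. Not every gene chosen this way is reported here, though the counts include all of them. Other members with values were chosen after these were seen. Alternatives were scaling by total library size or RLE size factors, a filter at 1 CPM in 4 libraries or none, DESeq2, limma-voom, host number as a block, the library number as a term, the myeloid level (mean log2 CPM of 20 markers, prior count 2) as a covariate, and leaving out libraries. Promoter sequences are from RefSeq (GRCm38.p6, the assembly that mm10 names). Tests were run in R 4.3.3 with DESeq2 1.42.0, edgeR 4.0.16 and limma 3.58.1, and tables and figures were made in Python 3.11.15 with numpy 2.4.6, pandas 2.3.3 and matplotlib 3.10.9.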

Additional observations from a re-analysis of the deposited data

Results flagged for a closer look

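In 6 of 132 checks of 4 libraries of 1 label, 1 library stood further from its neighbour than Dixon's critical value allows. Chance gives about 1 in 20 such checks. Under the KO label, Slc38a1 was at 228.4 CPM in KO 2 and at 217.9 to 219.3 in the others. Slc26a2 was at 61.83 CPM in KO 1, below 70.67 to 71.91 in the others. Slc19a2 was at 18.36 CPM in KO 4, above 15.06 to 15.56, and Slc16a1 was at 115.2 CPM in KO 5, above 106.4 to 107.9. Under the WT label, Slc2a1 was at 77.62 CPM in WT 1, below 89.78 to 92.11, and Mpc1 was at 15.32 CPM in WT 5, above 13.74 to 13.93.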

How the results depend on the processing

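All 25 calls kept their direction in every alternative but the myeloid covariate, where 17 did, and scaling moved the median of all genes by at most 0.0176. The counts of carriers higher and lower were 20 and 5. With the library number as a term they were 13 and 3, without KO 2 and KO 4 11 and 6, with DESeq2 22 and 9, with limma-voom 19 and 8, and in fits without 1 library 14 to 18 and 4 to 9. With the host number as a replicate block they were 14 and 5, and 19 of the 25 calls remained. Higher in that fit were 5 amino acid, 2 sugar, 3 ion, 1 mitochondrial and 3 other organic solute carriers. The lost calls given above for single Slc genes do not cover this fit. With the covariate every class gave 0. Amino acid carriers (6 and 0) were 5 to 6 and 0 without 1 library, with 1 lower in DESeq2. Sugar carriers (3 and 0) had 0 higher with the library number and without KO 2 and KO 4, and 1 to 3 without 1 library. Ion carriers (5 and 1) had 3 higher with the block, 3 and 2 without KO 2 and KO 4, 2 lower with total library size and limma-voom, 3 lower with DESeq2, and 5 to 6 and 0 to 3 without 1 library. Mitochondrial carriers (2 and 2) had 1 higher with the block and without KO 2 and KO 4, 1 and 1 with the library number, and 0 to 2 and 2 to 3 without 1 library. With the covariate the log2 difference (± SE for the carriers) changed sign for Slc7a8 (-0.51 ± 0.75), Slc7a11 (-0.37 ± 0.74), Slc31a1 (-0.24 ± 0.20), Slc31a2 (-0.48 ± 0.39), Slc25a33 (-0.29 ± 0.41), Slc15a3 (-0.63 ± 0.44), Slc2a6 (-0.88 ± 0.48), Slc16a3 (-0.92 ± 0.46), Fnip2 (-0.27), Sesn1 (-0.40), Fth1 (-0.0323) and Hmox1 (-1.12). None of these passed in that fit, and the labels do not overlap in the myeloid level, so these signs are uncertain. The cause was not tested. Over 66 named genes and their alternatives, 144 of 1188 values no longer passed the threshold, 6 newly passed it and 12 called values changed sign. The other 1026 stayed on the same side of the threshold, 42 of them uncalled with a changed sign. Low counts limit Slc7a7, Slc7a8, Slc7a11 and Slc8a1.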
